A study of Mus musculus with 7 samples.

Results

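The mouse Ms4a family was described through 8 genes, Ms4a4b, Ms4a6b, Ms4a4c, Ms4a1, Ms4a4a, Ms4a6c, Ms4a6d and Ms4a7, out of 56422 gene symbols in the expression table. They were picked by symbol, the TPM values (a length-corrected share of a library's RNA) of each symbol's transcript rows were added up (30 rows for the 8 genes), and the choice was made with the difference between the treatment groups already known. Their levels in the groups are therefore given as a description with no test. All 8 passed the filter on low values (TPM of at least 1 in at least 3 libraries), and each was at 2.13 TPM or more in all 7 libraries. Ms4a4b stood for T cells, Ms4a1 for B cells, and the other 6 for myeloid cells.

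The libraries were poly(A)-selected RNA from cells labelled CD8+ T cells, taken from the ascites of mice used as models of peritoneal metastasis. In 3 libraries the mice had received propionate and butyrate together, and the 4 control libraries had no such treatment. Propionate and butyrate are short-chain fatty acids that gut bacteria produce. The labels give no strain, age, sex, dose, time or tumour line for either group, and do not say whether a library came from 1 mouse or several. Of the treated libraries, 2 carry the replicate numbers 1 and 2, and the other is called the third treated library here because its column number matches no sample.

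Markers of other cells were present beside those of T cells in every library. Apoe, a lipid carrier of macrophages, averaged 1772 TPM and Krt19, a keratin, 218 TPM in treated libraries, beside 136 TPM for Cd8a, and 5056, 680 and 14.1 TPM in control libraries. B cell markers summed to 456 to 703 TPM in treated libraries, against 230 to 755 TPM in control libraries, and epithelial and mesothelial markers to 815 to 1534 TPM in treated libraries, against 2152 to 2672 TPM in control libraries. The part of these markers in the levels of the Ms4a members was not tested. Among the libraries 2 stood apart: the third treated library, with 32.9% of its TPM on mitochondrially encoded genes against 13.6% to 18.2% in the other 6, and control replicate 3, with the highest macrophage marker sum. The labels do not say that replicates came from separate mice, so the spread that p-values rest on may be technical.

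MS4A proteins cross the membrane several times and sit at the surface or on internal membranes of blood cells, where several of them associate with other receptors. Ms4a1 encodes CD20, the B cell antigen targeted by therapeutic antibodies. Ms4a4b is known from mouse T cells, where its protein associates with the receptor GITR (Tnfrsf18), while Ms4a4a and Ms4a7 are known from macrophages, and the Ms4a4a protein associates with the fungal receptor Dectin-1 (Clec7a). The genes lie side by side in a cluster, and several arose as near-copies of each other.

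The near-copies matter for what follows because members with alike sequences had unlike levels. RefSeq windows upstream of the transcription start (GRCm38.p6, an older build than the table's mm39) were matched by symbol for 6 of the 8 members, all but Ms4a1 and Ms4a6d. The 250 bases upstream of the annotated start are shown for both closest pairs, all on the plus strand, to let the copies be compared. Capitals mark runs of at least 10 bases that align identically within a pair, which cover 92 bases between Ms4a4b and Ms4a4c and 82 bases between Ms4a6b and Ms4a6c.
Ms4a4b (chr19:11443308-11443557): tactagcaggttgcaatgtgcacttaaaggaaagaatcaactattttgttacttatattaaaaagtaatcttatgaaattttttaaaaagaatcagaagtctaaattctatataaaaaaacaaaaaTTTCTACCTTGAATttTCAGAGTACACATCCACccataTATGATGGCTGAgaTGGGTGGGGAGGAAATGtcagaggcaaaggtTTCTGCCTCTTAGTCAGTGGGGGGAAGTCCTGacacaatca
Ms4a4c (chr19:11407411-11407660): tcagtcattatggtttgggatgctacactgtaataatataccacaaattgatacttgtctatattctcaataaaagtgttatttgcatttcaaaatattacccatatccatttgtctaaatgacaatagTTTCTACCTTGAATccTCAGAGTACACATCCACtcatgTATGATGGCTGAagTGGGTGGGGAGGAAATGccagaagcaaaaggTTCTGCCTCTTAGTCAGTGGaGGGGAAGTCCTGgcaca
Ms4a6b (chr19:11518309-11518558): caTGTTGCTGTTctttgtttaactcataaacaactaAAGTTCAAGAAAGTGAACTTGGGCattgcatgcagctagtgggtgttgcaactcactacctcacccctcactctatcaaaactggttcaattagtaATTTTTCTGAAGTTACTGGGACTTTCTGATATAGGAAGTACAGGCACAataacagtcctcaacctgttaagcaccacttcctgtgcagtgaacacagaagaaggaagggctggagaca
Ms4a6c (chr19:11469118-11469367): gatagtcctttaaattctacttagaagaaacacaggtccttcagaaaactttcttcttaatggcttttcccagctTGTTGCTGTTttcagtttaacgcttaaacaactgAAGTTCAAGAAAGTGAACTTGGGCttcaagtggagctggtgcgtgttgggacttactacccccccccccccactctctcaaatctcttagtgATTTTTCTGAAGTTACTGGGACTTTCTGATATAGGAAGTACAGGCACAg

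The Ms4a4b and Ms4a4c windows were identical at 183 of 260 aligned columns (70.38%), with a longest shared run of 20 bases. Those of Ms4a6b and Ms4a6c were identical at 149 of 183 columns (81.42%), with a shared run of 48 bases. Other pairs of members had 45.61% to 54.84% identity. Motifs were searched on both strands of the 250 bases before the start in the 7 member windows, and in the same bases for all genes. No window held GAGGAAGT (a PU.1 motif, in 2.44% of 32851 windows of all genes), TGTGGTTT (a RUNX motif, 1.49%) or the interferon response element (2.98%). The Ms4a4c window held 1 match to the octamer ATGCAAAT, found in 1.6% of all windows.

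The transcripts of the same pairs were alike as well. In the longest protein-coding transcripts of GENCODE M21, Ms4a4b and Ms4a4c aligned over 1823 columns at 81.79% identity, with a longest identical run of 127 bases. Ms4a6b aligned with Ms4a6c over 1234 columns at 86.22% (run of 96 bases), and with Ms4a6d over 910 columns at 82.97% (run of 81 bases). Ms4a6c and Ms4a6d aligned over 626 columns at 84.82% (run of 44 bases). How the authors divided reads among these near-copies is not stated in the labels or notes, so the split of TPM within each of the groups Ms4a4b and Ms4a4c, and Ms4a6b, Ms4a6c and Ms4a6d, is uncertain.

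Ms4a4b, Ms4a6b and Ms4a4c were higher in every treated library than in every control library, whereas the ranges of the other 5 members overlapped between the groups. Over all 14967 tested genes, 4.82% had every treated library above every control library and 25.7% had every treated library below every control library. Among the members the counts were 3 of 8 and 0 of 8, and nothing is read from them because the members were chosen on this contrast. By the test described further on, 4.3% of the tested genes were called higher and 7.59% lower. In these bulk samples, fewer cells of a type and less RNA per cell cannot be told apart.

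**Figure D1:**
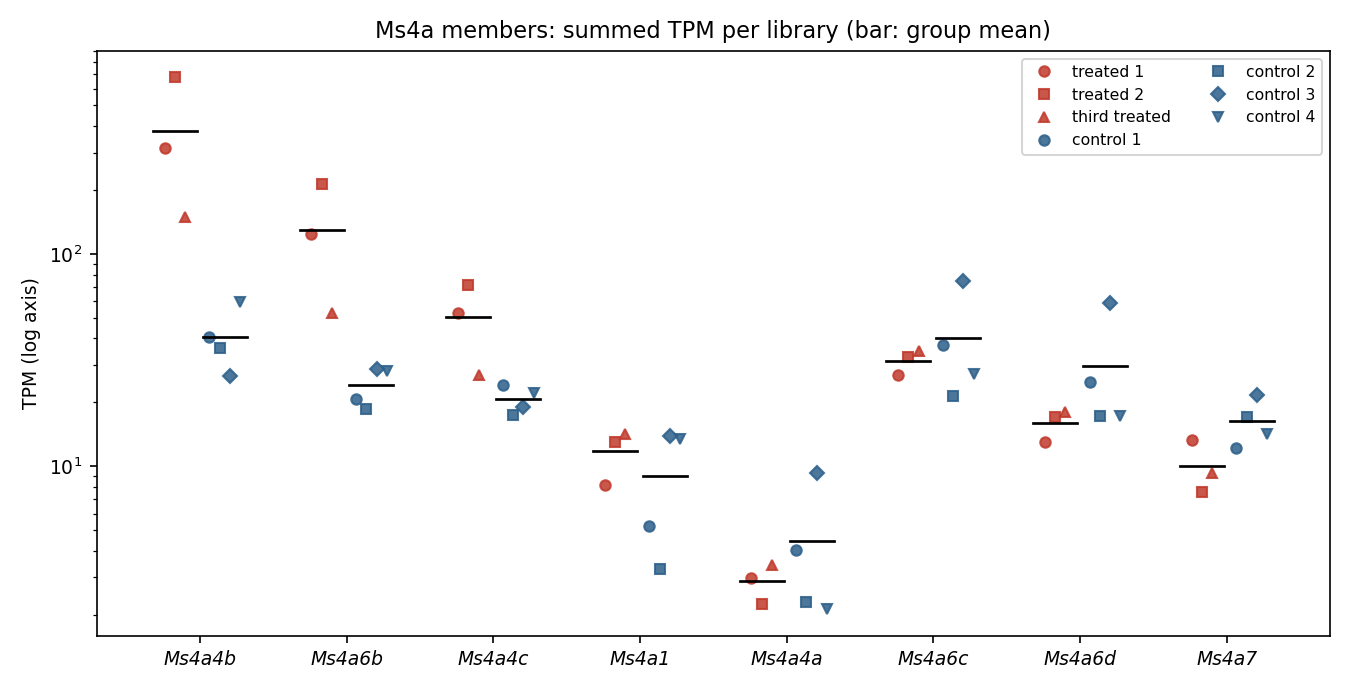
TPM of each of the 8 Ms4a members (log axis) in the 3 libraries treated with propionate and butyrate and the 4 control libraries; points are libraries and bars are group means. Ms4a4b, Ms4a6b and Ms4a4c lie higher in all treated libraries, and the other 5 members overlap.

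Ms4a4b, the T cell member, had the highest mean of the 8 members in both groups, although in control replicate 3 it lay below Ms4a6c, Ms4a6d and Ms4a6b. It was at 314, 678 and 149 TPM in treated replicate 1, treated replicate 2 and the third treated library, against 40.8, 36.1, 26.6 and 59.5 TPM in control replicates 1 to 4. The lowest treated library was thus above the highest control library, and treated replicate 2 was the highest of all 7. The means were 380 ± 271 TPM in treated libraries and 40.7 ± 13.8 TPM in control libraries (SD, n = 3 and 4), a 9.33-fold difference. On the log2(TPM + 1) scale the difference, treated minus control, was 2.99 (SE 0.59). It was 2.44 without treated replicate 2, where the fold was 5.68, 3.53 without the third treated library and 2.81 without control replicate 3.

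Ms4a6b, known from mouse T cells as well, was counted with the myeloid members but went with Ms4a4b. It had 124, 212 and 52.9 TPM in the 3 treated libraries, in the same order, against 20.8, 18.6, 28.8 and 28.2 TPM in the control libraries. The lowest treated library was above the highest control library, and the order of the treated libraries was that of Ms4a4b. Its means were 130 ± 79.9 TPM in treated and 24.1 ± 5.18 TPM in control libraries (SD, n = 3 and 4), 5.39-fold apart, with a log2 difference of 2.19 (SE 0.52). The log2 difference was 1.74 with treated replicate 2 left out, 2.73 with the third treated library left out and 2.29 with control replicate 3 left out.

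Ms4a4c, the near-copy of Ms4a4b that is known from mouse monocytes and T cells, also stood with these 2 genes, by a smaller margin. It was at 52.7, 71.5 and 26.8 TPM in the treated libraries, against 24.1, 17.5, 18.96 and 22.3 TPM in the control libraries. The third treated library exceeded the highest control library, replicate 1, by little. Means of 50.3 ± 22.4 TPM in treated and 20.7 ± 3.02 TPM in control libraries (SD, n = 3 and 4) gave a 2.43-fold difference, or 1.14 (SE 0.36) on the log2 scale. It was 0.84 when treated replicate 2 was left out, 1.53 when the third treated library was and 1.11 when control replicate 3 was.

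Ms4a1, the B cell member, overlapped between the groups. Treated libraries had 8.18, 13.1 and 14.2 TPM, against 5.26, 3.29, 13.9 and 13.4 TPM in control libraries. Control replicates 3 and 4 lay among the treated libraries, and control replicates 1 and 2 lay below them all. The log2 difference was 0.52 with an SE of 0.56, from means of 11.8 ± 3.19 TPM in treated and 8.97 ± 5.48 TPM in control libraries (SD, n = 3 and 4). It was 0.38 without the third treated library and 0.78 without control replicate 3.

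Of the macrophage members, Ms4a4a had the lowest mean of the 8 members in both groups. It had 2.97, 2.26 and 3.43 TPM in treated libraries, against 4.06, 2.29, 9.33 and 2.13 TPM in control libraries. The groups overlapped, and control replicate 3 held the highest value. The log2 difference was -0.32 (SE 0.48), and 0.05 without control replicate 3, so its sign rested on that library.

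Ms4a6c, the near-copy of Ms4a6b, did not show that gene's pattern. Its levels were 26.9, 32.6 and 34.9 TPM in treated libraries, against 37.3, 21.3, 74.8 and 27.2 TPM in control libraries. Treated libraries lay within the control range, which control replicate 3 stretched upwards. Its log2 difference was -0.19 (SE 0.46), and 0.16 without control replicate 3.

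Ms4a6d, whose protein is known from mouse macrophages, had 13.1, 17.1 and 18.1 TPM in treated libraries, against 25.0, 17.3, 58.9 and 17.3 TPM in control libraries. Treated replicates 1 and 2 lay below every control library, and the third treated library lay within their range. Its log2 difference was -0.67 (SE 0.49), and -0.28 without control replicate 3.

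Ms4a7, a gene of tissue macrophages, had 13.4, 7.54 and 9.32 TPM in treated libraries, against 12.2, 17.1, 21.7 and 14.2 TPM in control libraries. Treated replicate 2 and the third treated library lay below every control library, while treated replicate 1 lay above control replicate 1. The log2 difference was -0.65 (SE 0.27), from means of 10.1 ± 2.98 TPM in treated and 16.3 ± 4.14 TPM in control libraries (SD, n = 3 and 4). Leaving out the third treated library gave -0.61, and leaving out control replicate 3 gave -0.50.

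These differences are on a scale whose centre was shifted: the median log2 difference of all tested genes was -0.24, and -0.02 after median-of-ratios scaling. Relative to the median of all tested genes, Ms4a4b stood 3.23 higher, Ms4a6b 2.44, Ms4a4c 1.39 and Ms4a1 0.77. The same quantity was 0.06 for Ms4a6c, -0.08 for Ms4a4a, -0.40 for Ms4a7 and -0.42 for Ms4a6d. Ms4a6c turned positive (0.06) under median-of-ratios scaling, and the other 7 members kept their sign under both scalings.

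The family's make-up differed between the groups accordingly. The 8 members together held 556, 1034 and 309 TPM in treated libraries, against 169, 133, 253 and 184 TPM in control libraries. Ms4a4b took 56.5%, 65.5% and 48.3% of that sum in treated libraries, against 24.1%, 27.0%, 10.5% and 32.3% in control libraries. Ms4a6b took 22.4%, 20.5% and 17.1% in treated libraries, against 12.3%, 13.9%, 11.4% and 15.3% in control libraries. Every treated share of these 2 genes was above every control share. Ms4a6c took 4.84%, 3.15% and 11.3% in treated libraries, against 22.01%, 16.0%, 29.6% and 14.8% in control libraries, and all of its treated shares were below all of its control shares. Its own TPM overlapped between the groups, whereas the sum that the shares are taken of was higher in every treated library. The separation of its shares is therefore not a separation of its level.

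**Figure D2:**
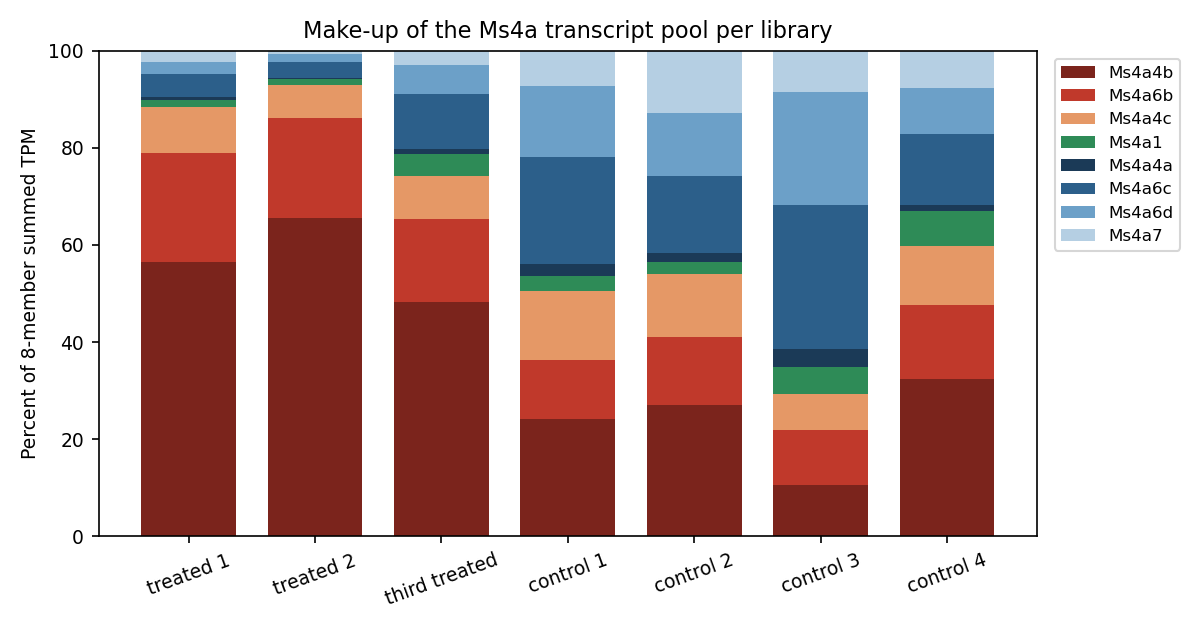
Share of the summed TPM of the 8 Ms4a members held by each member (percent), as stacked bars, treated libraries left of control libraries. Ms4a4b holds 48.3% to 65.5% in treated libraries, against 10.5% to 32.3% in control libraries.

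With groupings chosen after the values were seen, Ms4a4b, Ms4a6b and Ms4a4c summed to 491, 962 and 229 TPM in treated libraries, against 85.7, 72.2, 74.4 and 110 TPM in control libraries. Ms4a4a, Ms4a6c, Ms4a6d and Ms4a7 summed to 56.3, 59.4 and 65.8 TPM in treated libraries, against 78.5, 58.0, 165 and 60.8 TPM in control libraries. The second of these sums overlapped between the groups, with control replicate 3 above the other 6 libraries.

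By mean level (TPM), the order in treated libraries was Ms4a4b, Ms4a6b, Ms4a4c, Ms4a6c, Ms4a6d, Ms4a1, Ms4a7 and Ms4a4a. Neighbours in that order had ranges that did not overlap at 2 places, between Ms4a6c and Ms4a6d and between Ms4a7 and Ms4a4a. In control libraries the order was Ms4a4b, Ms4a6c, Ms4a6d, Ms4a6b, Ms4a4c, Ms4a7, Ms4a1 and Ms4a4a, and the ranges of all neighbours overlapped. Within single treated libraries, however, Ms4a4b was above Ms4a6b, and Ms4a6b above Ms4a4c, in 3 of 3.

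Ms4a6b differed between the groups in its transcript rows as well as its level. The table lists 5 rows for it, with no transcript identifiers. The row with the largest mean over the 7 libraries held 28.3% to 37.9% of Ms4a6b TPM in treated libraries, against 46.9% to 66.1% in control libraries. A second row held 36.4% to 39.3% in treated libraries, against 23.2% to 27.0% in control libraries, and another held 20.5% to 21.1%, against 9.58% to 15.7% in control libraries. None of these 3 ranges overlapped between the groups. Row shares of a gene add up to its whole, so these separations are not independent of each other. How often row shares separate in other genes was not tested, so nothing is read from the separations of any member's row shares. In TPM, the first row averaged 42.8 in treated and 14.2 in control libraries (3.01-fold), while the second averaged 49.0 in treated and 5.99 in control libraries (8.19-fold).

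The 2 largest rows of Ms4a4b had shares that overlapped between the groups. The largest of its 7 rows held 45.5 ± 0.869% in treated and 45.7 ± 3.33% in control libraries (SD, n = 3 and 4), and the next held 34.4 ± 1.13% in treated and 37.4 ± 4.59% in control libraries. Of its smaller rows, 1 held 6.38% to 6.77% in treated libraries, against 2.22% to 6.29% in control libraries, and another 1.03% to 1.68% in treated libraries, against 0.64% to 0.75% in control libraries, both without overlap. Ms4a4c had 3 rows, the largest at 65.2 ± 1.85% in treated and 68.7 ± 11.5% in control libraries (SD, n = 3 and 4). Of the 2 rows of Ms4a6c, the larger held 58.2% to 63.9% in treated libraries, against 67.3% to 71.1% in control libraries, without overlap. Ms4a6d was almost wholly 1 of its 4 rows, at a mean share of 99.1% in treated and 98.4% in control libraries. StringTie, named in the submitters' processing notes, estimates such row values, so a split between rows carries the same uncertainty as a split between near-copies.

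**Figure D3:**
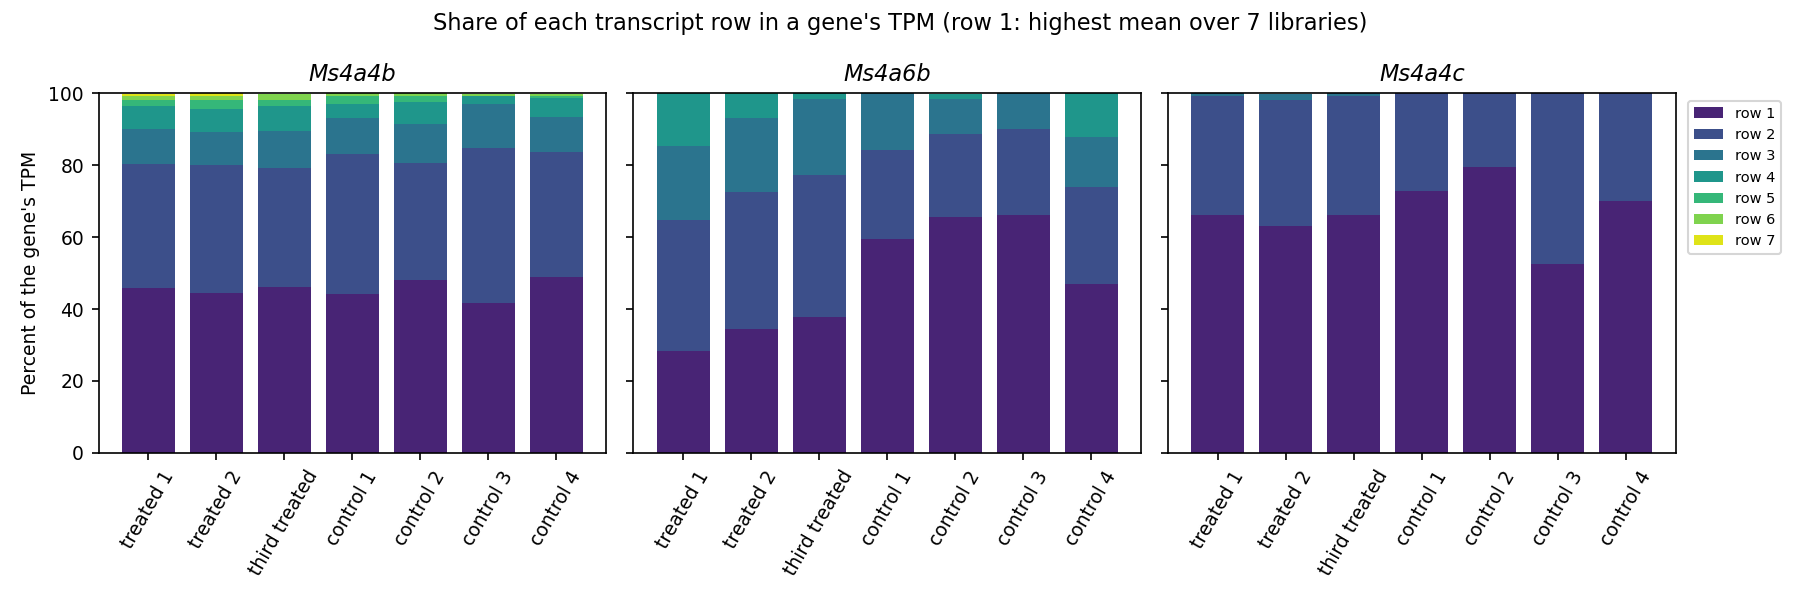
Share of the TPM of Ms4a4b, Ms4a6b and Ms4a4c held by each transcript row (percent), treated libraries left of control libraries. The rows of Ms4a6b differ between the groups, with the first row at 28.3% to 37.9% in treated libraries against 46.9% to 66.1% in control libraries.

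Each member was then set against a list of markers of its cell type, as TPM per 100 TPM of the summed markers. The 16 T cell markers summed to 1438, 3219 and 759 TPM in treated libraries, against 206, 229, 155 and 273 TPM in control libraries. Ms4a4b was at 21.8, 21.1 and 19.6 per 100 TPM of these in treated libraries, against 19.8, 15.8, 17.1 and 21.8 in control libraries. Those ranges overlapped, with a log2 ratio difference of 0.17. The part of the T cell markers in the Ms4a4b difference was not tested, but relative to them the level was within the control range in 2 of 3 treated libraries.

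Ms4a6b and Ms4a4c, set against the T cell markers after their values were seen, gave another picture. Ms4a6b was at 8.66, 6.60 and 6.97 per 100 TPM of T cell markers in treated libraries, against 10.1, 8.13, 18.6 and 10.3 in control libraries, an overlap. Ms4a4c was at 3.67, 2.22 and 3.54 in treated libraries, against 11.7, 7.67, 12.2 and 8.16 in control libraries. That ratio was lower in every treated library, with a log2 ratio difference of -1.67. Ms4a1 per 100 TPM of the 16 B cell markers was at 1.73, 1.86 and 3.10 in treated libraries, against 1.14, 1.43, 1.84 and 2.51 in control libraries, which overlapped.

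The 16 macrophage markers summed to 3462 to 4224 TPM in treated libraries, against 6272 to 15159 TPM in control libraries. Without Apoe the sum overlapped, at 1827, 2045 and 2642 TPM in treated libraries, against 3001, 2423, 6691 and 2530 TPM in control libraries, so the separation of the sums rested on that gene. Per 100 TPM of all 16 markers, Ms4a6c was at 0.650, 0.940 and 0.827 in treated libraries, against 0.524, 0.338, 0.494 and 0.434 in control libraries. Its ratio was higher in every treated library, and so it was without Apoe, with log2 ratio differences of 0.85 and 0.45.

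Ms4a4a was at 0.0717, 0.0653 and 0.0812 per 100 TPM of the macrophage markers in treated libraries, against 0.0570, 0.0362, 0.0615 and 0.0340 in control libraries. That ratio was higher in every treated library, but without Apoe it overlapped, at 0.1625, 0.1105 and 0.1298 in treated libraries, against 0.1353, 0.0945, 0.1394 and 0.0842 in control libraries. Ms4a6d and Ms4a7 overlapped with and without Apoe, and their log2 ratio differences of 0.35 and 0.34 became -0.06 and -0.06 without it. Ms4a6b and Ms4a4c had ratios to the macrophage markers that were higher in every treated library, with log2 ratio differences of 3.28 and 2.22, and 2.88 and 1.81 without Apoe. With the median over the marker genes in place of the sum, the log2 ratio difference was 0.30 for Ms4a4a, 0.485 for Ms4a6c, -0.02 for Ms4a6d and -0.02 for Ms4a7.

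**Figure D4:**
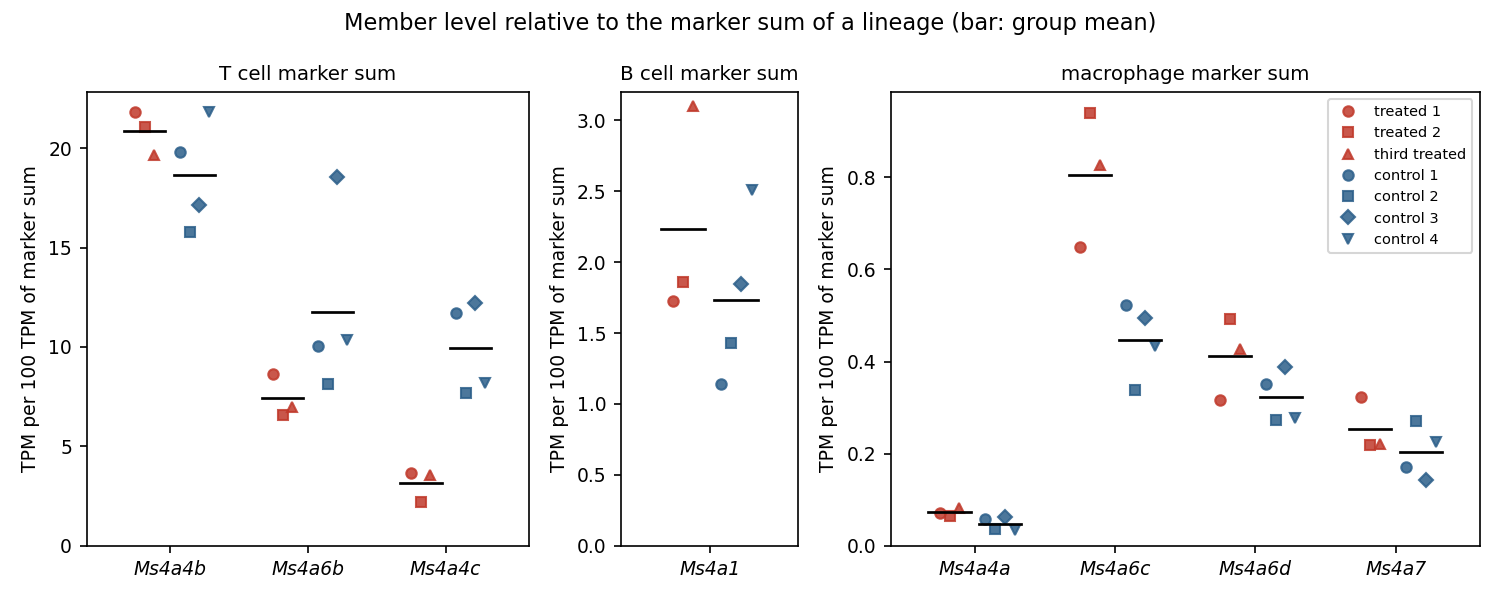
Members as TPM per 100 TPM of the summed markers of a cell type, by library, treated left of control. Ms4a4b per T cell marker overlaps between the groups, at 19.6 to 21.8 in treated and 15.8 to 21.8 in control libraries.

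Symbols that are model numbers (Gm or Rik names) were left out of the next comparison. The tested genes outside the members with the most alike pattern across the 7 libraries were found by the root mean square (RMS) difference in centred log2(TPM + 1). For Ms4a4b they were Ctsw (0.109), Thy1 (0.124) and Cd8a (0.143), which encode a cathepsin of cytotoxic lymphocytes, a T cell surface protein and the CD8 alpha chain. For Ms4a6b they were Gimap1 (0.106), a lymphocyte GTPase, Traf3ip3 (0.127) and Ifi208 (0.128). For Ms4a4c they were Ly75 (0.102), Ccr9 (0.125), a gut-homing chemokine receptor, and Slc17a9 (0.134). Ms4a1 had Bank1 (0.157) and Cd79b (0.184), both genes of the B cell receptor system.

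Among the macrophage members, the nearest genes of Ms4a4a were Cd300ld3 (0.0931), Pira2 (0.137) and Arl11 (0.166). Ms4a6c had Ifi207 (0.0681), Mefv (0.104), the pyrin gene, and Asprv1 (0.117). Ms4a6d had Clec4a1 (0.102), Pltp (0.103), a phospholipid transfer protein, and Ifi30 (0.128), a lysosomal thiol reductase. Ms4a7 had Aunip (0.126), Alpl (0.142) and Ifitm2 (0.146). Between members, the RMS difference was 0.198 for Ms4a4a with Ms4a6c, 0.250 for Ms4a4a with Ms4a6d and 0.537 for Ms4a4b with Ms4a6b. The near-copies Ms4a6b and Ms4a6c were 1.38 apart, and Ms4a4b and Ms4a4c 0.974 apart.

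**Figure D5:**
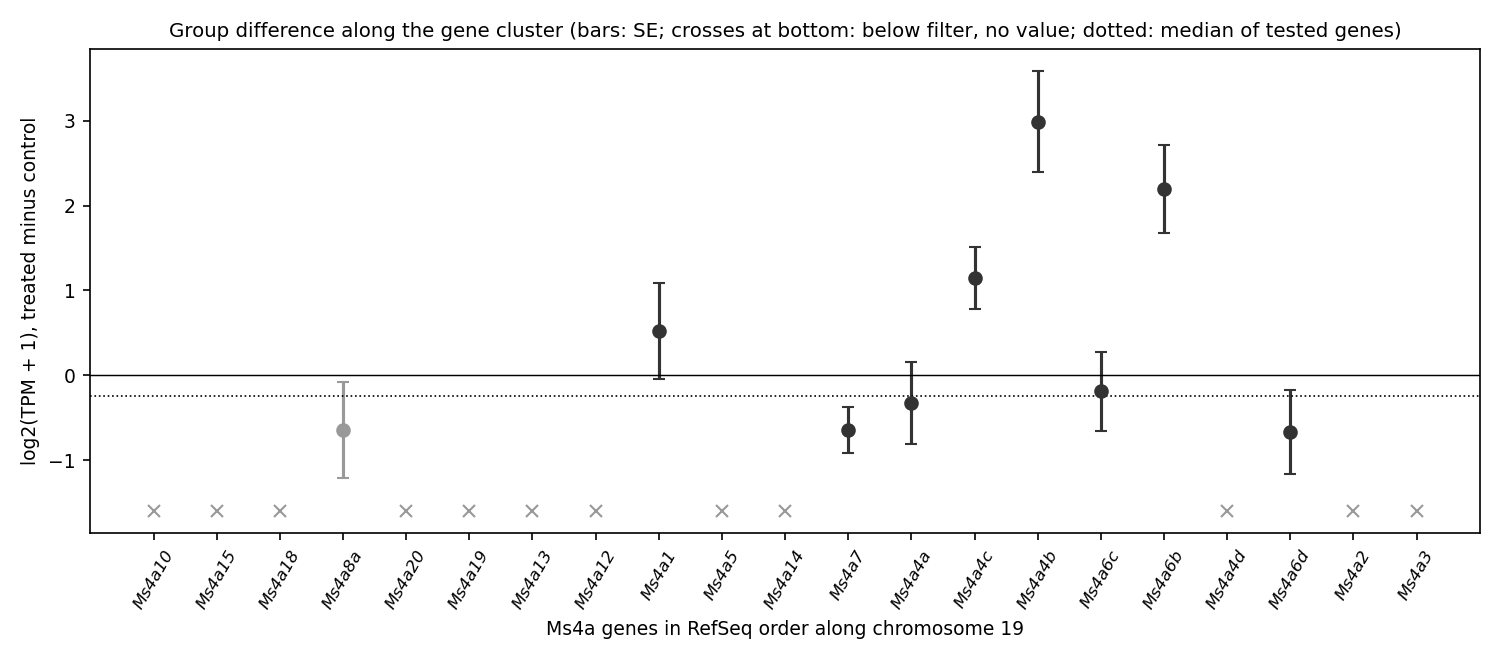
Log2 difference (treated minus control) of the Ms4a genes in their RefSeq order along chromosome 19, with crosses for genes under the filter on low values. Ms4a4c and Ms4a4b, and Ms4a6c and Ms4a6b, are neighbours, with differences of 1.14 and 2.99, and of -0.19 and 2.19.

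RefSeq lists 21 Ms4a genes on chromosome 19 that are in the table. In that order, Ms4a7, Ms4a4a, Ms4a4c, Ms4a4b, Ms4a6c and Ms4a6b follow each other, and among these Ms4a6c lies between Ms4a4b and Ms4a6b. Of the rest of the family, Ms4a5, Ms4a10, Ms4a13, Ms4a15, Ms4a18 and Ms4a20 were listed at 0 in every library, and so was Ms4a19, which was named after its values were seen. Ms4a2, the beta chain of the mast cell IgE receptor, did not exceed 0.09 TPM, Ms4a3, a gene of granulocyte progenitors, 0.1 TPM, and Ms4a12 0.07 TPM. Ms4a4d was at 0.33, 0.36 and 0.16 TPM in treated libraries, against 0.09, 0.05, 0 and 0 TPM in control libraries, and Ms4a14 at 0.43 to 0.95 TPM in treated libraries, against 0.52 to 1.23 TPM in control libraries.

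Genes outside the members were tested with limma on log2(TPM + 1), with Benjamini-Hochberg adjustment over all 14967 tested genes and calls at an adjusted p under 0.05. Without the filter on low values, when 29687 genes were tested, no gene of these lists was called. Of the 14 other family genes and relatives, 3 were tested (median log2 difference -0.93) and 2 fell, both of them Tmem176 genes, which encode related membrane proteins of dendritic cells and macrophages. Tmem176a averaged 166 ± 41.0 TPM in treated and 321 ± 26.5 TPM in control libraries (log2 difference -0.97, SE 0.21, limma adjusted p = 0.00769). Tmem176b averaged 349 ± 104 TPM in treated and 651 ± 87.3 TPM in control libraries (-0.93, SE 0.23, limma adjusted p = 0.0185). Ms4a8a did not pass, at 10.2 ± 2.80 TPM in treated and 18.8 ± 12.99 TPM in control libraries (limma adjusted p = 0.259). The Tmem176b call was lost without treated replicate 2 (limma adjusted p = 0.0575) and likewise with the third treated library left out (limma adjusted p = 0.0547).

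Receptors and adaptors known to associate with MS4A proteins were mostly not called. Of 8, 7 were tested (median log2 difference -0.34), and Tnfrsf18, the GITR gene, rose. It had 12.8, 21.3 and 7.15 TPM in treated libraries, against 5.72, 4.96, 6.79 and 5.75 TPM in control libraries (log2 difference 1.00, SE 0.29, limma adjusted p = 0.0368). Its call was lost without treated replicate 1 (limma adjusted p = 0.0725), treated replicate 2 (0.146) or control replicate 2 (0.0580). Trem2, a lipid receptor of macrophages, had a log2 difference of -0.92 (limma adjusted p = 0.0545) and was called without control replicate 1 (0.0448), control replicate 2 (0.0470) or control replicate 4 (0.0140). Clec7a averaged 29.8 ± 2.86 TPM in treated and 43.9 ± 41.1 TPM in control libraries, and Vsig4, a complement receptor, 3.30 ± 3.04 TPM in treated and 4.35 ± 3.57 TPM in control libraries. Fcer1g and Tyrobp, adaptors of myeloid receptors, and Cd40 did not pass either, and Fcer1a was not tested.

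The cell type markers gave the setting. All 16 T cell markers rose, with a median log2 difference of 2.83, against -0.24 over all tested genes. Cd8a had 113, 242 and 54.3 TPM in treated libraries, against 15.6, 14.8, 7.95 and 18.0 TPM in control libraries, and Trbc1, a T cell receptor chain, had a log2 difference of 3.17 (SE 0.30, limma adjusted p = 0.000161), with Lat, an adaptor of that receptor, at 2.94. All 8 naive T cell markers rose (median 2.40), among them Il7r (2.98), Lef1 (2.81) and Satb1 (2.60). Of 7 NK cell markers 3 were tested and all rose (median 2.42), Gzma (2.28), Klre1 (2.42) and Eomes (2.54). Ncr1, Klrb1c, Klra4 and Klra8, at 2.96 TPM or less in every library, lay under the filter on low values and were not tested, so the count does not cover them. The part of T cells in the rise of Gzma, Klre1 and Eomes was not tested, so their rise is not read as one of NK cells.

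No B cell marker of 15 tested was called by limma, with 1 at an unadjusted p under 0.05 (Ebf1, unadjusted p = 0.0321), and the median was 0.35. Ebf1 had 1.25, 1.6 and 1.17 TPM in treated libraries, against 0.59, 0.21, 0.87 and 0.72 TPM in control libraries. It thus passed the filter on low values through the treated libraries only. Of 15 macrophage markers 2 fell, Apoe (log2 difference -1.46, limma adjusted p = 0.00987) and Fcgr1 (-0.95, limma adjusted p = 0.0478), and the median was -0.57. Apoe was not called once the third treated library was dropped (limma adjusted p = 0.0608), and Fcgr1 lost its call without treated replicate 1 (0.103), treated replicate 2 (0.0581), the third treated library (0.115) or control replicate 3 (0.130). Without control replicate 2 the count was 5, with C1qa (limma adjusted p = 0.0458), C1qb (0.0346) and C1qc (0.0495), the chains of complement C1q, gained, and without control replicate 4 C1qa was gained (0.0267). Of 8 monocyte markers 1 rose, Ly6c2 (2.53), also a gene of CD8 T cells, and 2 fell, Hp (-1.15) and Ace (-0.94), with a median of 0.38. The Ace call was lost without treated replicate 2 (0.0984), the third treated library (0.0928) or control replicate 2 (0.0789). Without control replicate 3 the higher count was 4, with Plac8 (limma adjusted p = 0.000478), Ccr2 (0.0385), a chemokine receptor, and Chil3 (0.0368) gained. The library left out had the highest control level of each of these genes (143, 38.7 and 5.26 TPM). Without it, Chil3 passed the filter on low values through the treated libraries only, with 0.95, 0.88 and 0.6 TPM in control replicates 1, 2 and 4.

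Among the remaining lists, 6 of 7 epithelial and mesothelial markers fell (median -1.09), with Krt19 at -1.68 and Krt8 at -1.19, keratins of simple epithelia, and Cldn3, a junction protein, at -2.73. The count was 4 without treated replicate 2 or without the third treated library, where Msln (limma adjusted p = 0.114 and 0.0978) and Upk3b (0.0669 and 0.0874), both mesothelial genes, lost their calls, and 5 without any 1 control library, where Msln lost its call (0.0590 to 0.0939). The plasma cell marker Sdc1, which epithelia express too, fell (-1.18, 1 of 3 tested), and so did the mast cell marker Kit (-0.93, 1 of 5). Kit averaged 35.7 TPM in control libraries, where Hdc averaged 14.1 TPM and the rest of the mast cell list 3.29 TPM (Cma1) or less. Which cells Kit came from was not tested. Siglech, a plasmacytoid dendritic cell marker, rose (0.93, 1 of 5), a call lost without treated replicate 1 (limma adjusted p = 0.0734), treated replicate 2 (0.172), control replicate 1 (0.0735), control replicate 2 (0.0685) or control replicate 4 (0.0539). None of 4 neutrophil markers was called by limma, with 0 at an unadjusted p under 0.05 and a median of -0.11. None of 10 interferon response genes was called by limma, with 4 lower at an unadjusted p under 0.05 and a median of -0.38. Without treated replicate 1, 3 of them were called lower, Isg15 (limma adjusted p = 0.0334), Oasl2 (0.0166) and Ifi44 (0.0164), and 3 were with mitochondrially encoded genes left out of the scaling. The medians were -0.05 for plasma cell, -0.49 for mast cell and 0.07 for dendritic cell markers.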

How the data were processed

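Expression was read from 1 table that the authors deposited in TPM, a length-corrected share of a library's RNA, with 149132 transcript rows and 7 library columns. The submitters' processing notes name fastp, HISAT2, StringTie and the mouse build mm39, without versions or roles. TPM keeps no read depth, so depth is unknown and no counting interval is given. Rows were summed by symbol; 1001 unnamed rows, holding 0.3065% to 0.6176% of a library's TPM, were left out. The members and lists were chosen with earlier results of these data known. The named genes are all members, the family and partner lists, up to 3 genes with the smallest p per other list, and the 3 nearest genes per member; some genes this names are not reported here. Ms4a19 was named after its values were seen. Genes at 1 TPM or more in at least 3 libraries were tested with limma 3.58.1 (R 4.3.3), with an intensity trend on log2(TPM + 1), checked on simulated data. Promoter windows come from RefSeq on GRCm38.p6 and transcripts from GENCODE M21; no coordinate was converted. Alternatives were other pseudocounts, filters, scalings, variance models, libraries left out and a replicate block.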

Additional observations from a re-analysis of the deposited data

Results flagged for a closer look

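Of 38 quantities checked for a library far from the others of its group, 2 stood out, both in control replicate 3; about 1 in 20 groups of 4 does so by chance. The summed macrophage markers were at 15160 TPM in that library, with the other 3 control libraries between 6272 and 7121 TPM. The summed monocyte markers were at 420 TPM there, with the other 3 control libraries between 208.9 and 244.2 TPM. No Ms4a member met the same criterion, though Ms4a4a, Ms4a6c, Ms4a6d and Ms4a7 had their highest level in this library.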

How the results depend on the processing

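The counts of called genes moved with the processing. Against 643 genes called higher and 1136 lower (30 and 14 in the fixed lists together), removing the filter left 3 higher and 4 lower, with 0 and 0 in the lists, over 29687 tested genes. Median-of-ratios scaling gave 1292 higher and 1009 lower, leaving out mitochondrially encoded genes 875 higher and 1872 lower, and array weights 2246 higher, 4221 lower and 25 lower in the lists. Leaving out 1 library in turn gave 388 to 794 higher, 585 to 2909 lower, and 8 to 19 lower in the lists. The lowest higher count came without treated replicate 2 (lower 586), and the extremes of the lower count without control replicate 2 and without treated replicate 1. Leaving out control replicate 3 and the third treated library together, chosen after seeing the data, gave 267 lower and 5 lower in the lists. A replicate block on numbers 1 and 2 gave 135 lower and 4 lower in the lists. Same-numbered libraries had deviation correlations of -0.019 and -0.09, so the numbers are not shown to pair the libraries.

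Among the members, Ms4a4b was at 3.78 with array weights on the log2 scale (2.99 as reported), and Ms4a6b at 2.94 with array weights, 2.99 with the replicate block and 1.36 from its largest transcript row (2.19 as reported). Over 18 alternatives Ms4a4b, Ms4a6b, Ms4a4c and Ms4a1 stayed positive and Ms4a6d and Ms4a7 negative. Ms4a6c was positive in 4, and Ms4a4a in 1 of 17, having no value at a filter of 5 TPM. Other filters and the robust variance model cannot change a member's log2 difference. For Ms4a4b, Ms4a6b and Ms4a4c, whose groups did not overlap, neither leaving libraries out nor another pseudocount could change the sign. These counts are therefore no support for the signs of those members. Relative to macrophage markers, the median over genes gave 0.30 for Ms4a4a, 0.485 for Ms4a6c, -0.020 for Ms4a6d and -0.025 for Ms4a7, and the sum without Apoe, chosen after seeing the data, 0.261 for Ms4a4a, 0.445 for Ms4a6c, -0.060 for Ms4a6d and -0.065 for Ms4a7, against 0.67, 0.85, 0.35 and 0.34 from the whole sum. The replicate block left 3 of 6 epithelial and mesothelial calls. With a pseudocount of 5, the log2 differences of Klre1, Eomes, Ace, Siglech and Cldn3 were 1.43, 1.53, -0.44, 0.41 and -1.42. Under the replicate block limma no longer called Tmem176a (adjusted p = 0.0629) or Tmem176b (adjusted p = 0.174), and median-of-ratios scaling added Ebf1 (adjusted p = 0.0455). Before that scaling, Ebf1 was under 1 TPM in every control library. The cause of these shifts was not tested. With 3 treated and 4 control libraries and no known depth, small differences among low genes such as Ms4a4a could not be resolved.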
